A study of Mus musculus with 16 samples.

Results

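The comparison asked whether bone-marrow-derived macrophages (BMDM) that lack NELF-B respond to LPS differently from WT BMDM. It is the interaction of genotype and treatment, the LPS response of KO minus the LPS response of WT, and it was fitted for all 9614 genes over the 10 untreated and LPS libraries of the 16 in the series. All cells came from male C57BL/6 mice aged 8 weeks that carried LysM-Cre, which is expressed in myeloid cells. WT mice were LysM-Cre:NELF-B wt/wt, and KO mice were LysM-Cre:NELF-B fl/fl, in which exon 4 of Nelfb is flanked by loxP sites. BMDM were left untreated (2 libraries per genotype) or received 10 ng/ml LPS for 1 hr (3 libraries per genotype). The remaining libraries of both genotypes received the same LPS with 100 nM dexamethasone (Dex), a synthetic glucocorticoid, for 1 hr. They are used only where stated. Each genotype was represented by 3 mice, called A, B and C here. WT and KO mice of a letter are different animals: the labels of some libraries of mice B carry the same run or date in both genotypes, those of mice C carry marks of one kind, and mice A are the remaining ones. Mice A and B had an untreated and an LPS library each, and mice C had an LPS library with no untreated partner. The deletion acts only in cells that express LysM-Cre, so a culture can keep cells with an intact allele.

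NELF, the negative elongation factor, is a complex that holds RNA polymerase II in a paused state shortly after it has started transcription. Release from the pause follows phosphorylation by P-TEFb, the kinase of CDK9 and cyclin T. LPS, a component of the outer membrane of Gram-negative bacteria, is sensed by TLR4 and activates NF-kB and MAP kinases, which induce immediate-early transcription factors, cytokines and chemokines within the hour.

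Values are log2 CPM, the logarithm of the reads of a gene scaled to the size of its library, as the authors deposited them. Depth was 25030999 to 49730049 reads per library. Nelfb itself (chr2:25199712-25211489, mm10) was at 6.21 and 5.92 log2 CPM in the untreated WT libraries of mice A and B and at 3.53 and 4.38 in those of KO. In the LPS libraries of mice A, B and C it was at 5.66, 5.76 and 5.59 in WT and at 3.27, 4.21 and 3.48 in KO. The KO libraries were below every WT library, and the LPS response of Nelfb differed between the genotypes by 0.09 ± 0.44 log2 (standard error). Of 16 macrophage markers 15 were measured, with a summed level of 15602 to 22095 CPM in the 10 libraries. The lists for other cells were measured in part, with 4 of 14 neutrophil, 3 of 10 dendritic cell, 2 of 10 B cell, 1 of 13 T and NK cell, 7 of 12 fibroblast and 2 of 9 endothelial markers, and 0 of 12 erythroid and 0 of 10 mast cell markers. The neutrophil markers summed to 187.2 to 374 CPM in untreated WT, 205 to 404 in LPS-treated WT, 261 to 416 in untreated KO and 287 to 443 in LPS-treated KO, so the genotypes overlapped. The fibroblast markers summed to 109.2 to 122.6 CPM in untreated WT and 126.2 to 133.7 in untreated KO, without overlap. After LPS they were at 103.6 to 163.3 in WT and 155.8 to 181.9 in KO. The sums of the dendritic cell, B cell, T and NK cell and endothelial markers overlapped between genotypes. Whether the cultures differed in their cells was not tested.

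An untreated WT library stood apart. In the library of WT mouse A, 2270 genes (23.6%) differed more than 2-fold from the mean of the other 3 untreated libraries, against 145 to 241 genes for each of those. Its difference from the others was lower for longer transcripts (r = -0.58 with log2 length across 9211 genes with an annotated length, genes not being independent replicates). The same pattern was present in the interaction from mice A (r = -0.61 with length) and in the fit of all 10 libraries (r = -0.56). It was weak in the interaction from mice B (r = 0.09) and in a fit without that library (r = 0.13). The genes and lists below are therefore given without the untreated library of WT mouse A, for mice A and B separately, or both, beside the fit of all 10 libraries. Without it, the untreated WT group is mouse B alone, which is then assumed to vary like the other groups. The part of this library, and of transcript length, in the results below was not tested further. In these bulk cultures, fewer cells that express a gene and less RNA per cell cannot be told apart.

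The LPS response was described first over both genotypes. Averaged over genotypes, LPS raised 338 genes (3.52% of 9614) and lowered 145 (1.51%) by more than 1.5-fold at a limma adjusted p under 0.05. With the mouse as a replicate block, these numbers were 274 and 44. Within WT the numbers were 263 and 67, and within KO 238 and 44, which became 146 and 6 in WT and 156 and 4 in KO with the replicate block. The largest increases were those of Ifnb1, which encodes interferon beta, the chemokines Cxcl10 and Cxcl1, and the cytokines Il6 and Il1b. Ifnb1 had 0 and 1 reads in the untreated WT libraries and 0 in both untreated KO libraries. In LPS-treated libraries of mice A, B and C it was at 4.93, 5.96 and 6.12 log2 CPM in WT and at 5.09, 6.76 and 5.02 in KO, so the genotypes overlapped. Over the 338 induced genes the median response was 1.62 log2 in both WT and KO.

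**Figure D1:**
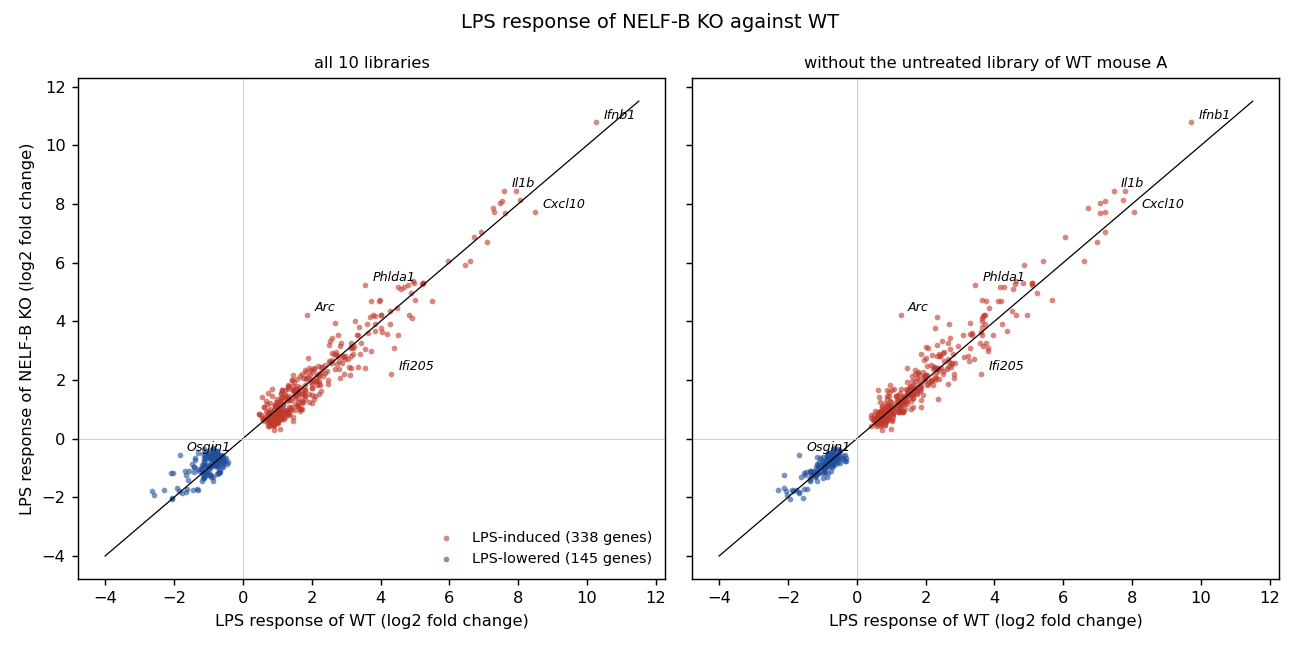
LPS response of KO (vertical axis) against LPS response of WT (horizontal axis), both as log2 fold changes, for the 338 genes that LPS raised and the 145 that it lowered on average; the line marks equal responses. Left, all 10 libraries; right, without the untreated library of WT mouse A. Arc, at 1.88 in WT and 4.22 in KO in the left panel, lies far above the line in both panels.

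No gene passed an adjusted p under 0.05 with a difference of more than 1.5-fold in the LPS response (0% of 9614 higher in KO and 0% lower), and the smallest limma adjusted p was 0.823. At an unadjusted p under 0.05 and over 1.5-fold, the response was higher in KO for 15 genes (0.156%) and lower for 25 (0.26%). The replicate block gave 15 and 3 genes. At unadjusted p under 0.05, whatever the size, there were 44 genes (0.458% of 9614). In the simulated data described below, 5% to 5.67% of the unchanged genes fell under this limma threshold. The share in the data was thus no higher than in the simulation. The simulated spread is unlike that of the data, as given below, so this does not decide whether these genes are an excess. Without the untreated library of WT mouse A the response was higher in KO for 19 genes (0.198%) and lower for 4 (0.0416%) at the unadjusted thresholds, and again 0 genes passed at an adjusted p under 0.05. With the untreated library of WT mouse A as the only untreated WT library, 1440 genes were higher and 1519 lower at an adjusted p under 0.05. In simulated data of this design, 0 of 200 genes with a 2-fold difference were recovered and 129 of 200 (64.5%) with a 4-fold difference. The simulation gave all groups the same spread for a gene. In the data the median standard deviation was 0.42 log2 in untreated WT and 0.11 to 0.17 in the other groups. Recovery and the share of unchanged genes under the threshold can therefore differ. The genes below are therefore described by their values, and none of them passed the test over all genes.

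**Figure D2:**
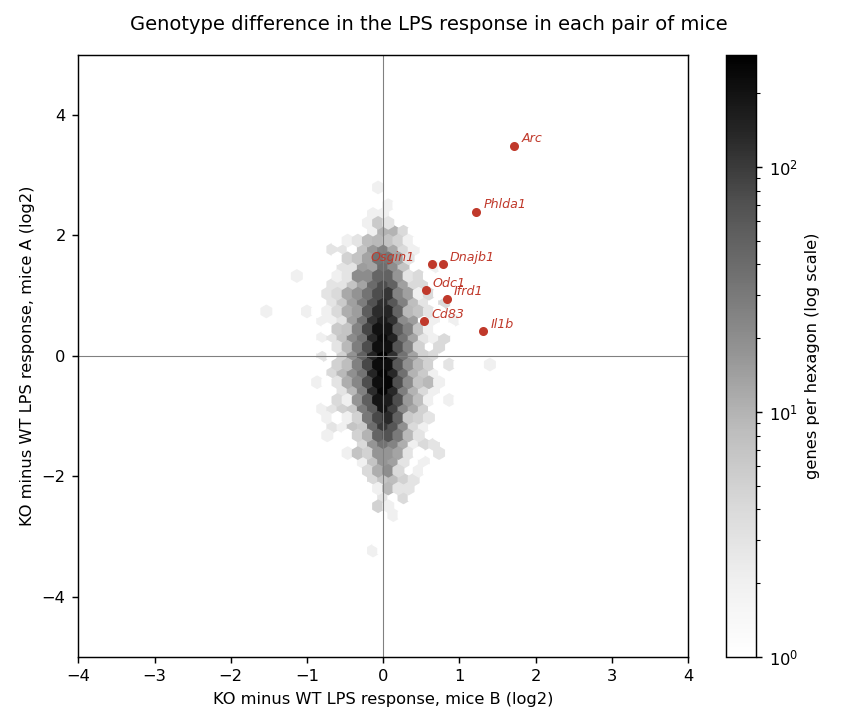
Difference between KO and WT in the LPS response, in log2, from mice A (vertical axis) and from mice B (horizontal axis), for all 9614 genes; shade gives genes per hexagon and red points are 8 genes higher in KO with and without the untreated library of WT mouse A. The spread is wide in mice A, where 20.3% of genes differ more than 2-fold, and narrow in mice B, where 0.354% do. The 8 red genes are above 0 in both, which is not a separate check, as they were selected on these libraries.

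A group of 8 genes had a higher LPS response in KO at the unadjusted thresholds both with and without the untreated library of WT mouse A: Arc, Phlda1, Osgin1, Dnajb1, Odc1, Ifrd1, Il1b and Cd83. In each of them the LPS changes of KO mice A and B were both above those of WT mice A and B, an order that 1233 of the 9614 genes (12.8%) showed. In 7 of the 8, all but Cd83, every LPS-treated KO library was also above every LPS-treated WT library, as for 568 genes (5.91%). The 8 genes were selected on the interaction in these same libraries. Both orders thus follow largely from the selection and lend it no separate support. With all 10 libraries, 14 of the 15 genes past the unadjusted thresholds in this direction showed the first order.

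Promoter sequence from RefSeq (GRCm38.p6) was matched for 5 of these 8 genes. It is shown for Il1b and Dnajb1, a strongly induced cytokine gene and a gene that LPS barely moved in WT, since a window of each overlaps no annotated exon. The windows of Osgin1, Odc1 and Ifrd1 overlap exons by 29, 79 and 250 bases, and another window of Dnajb1 by 245. The 250 bases before each start, which overlap no annotated exon, lie at chr2:129371140-129371389 (minus strand) for Il1b and at chr8:83607925-83608174 (plus strand) for Dnajb1. Capitals mark motif matches on either strand.
Il1b: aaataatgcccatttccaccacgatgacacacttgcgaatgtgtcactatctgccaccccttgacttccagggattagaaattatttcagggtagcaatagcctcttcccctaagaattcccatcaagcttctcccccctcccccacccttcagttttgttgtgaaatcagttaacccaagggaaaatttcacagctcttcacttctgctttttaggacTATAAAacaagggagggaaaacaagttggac
Dnajb1: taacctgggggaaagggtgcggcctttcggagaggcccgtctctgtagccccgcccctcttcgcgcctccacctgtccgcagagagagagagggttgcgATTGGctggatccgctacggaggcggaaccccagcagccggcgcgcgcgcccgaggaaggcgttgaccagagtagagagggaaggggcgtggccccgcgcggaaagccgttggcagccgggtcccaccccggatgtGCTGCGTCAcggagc
In Il1b the capitals are a TATA box (TATAAA), 31 to 26 bases before the start, which 12.4% of 32851 annotated promoter windows of this length hold. In Dnajb1 they are a CCAAT box (CCAAT, as ATTGG on the other strand), found in 33.8% of windows, and an antioxidant response element (TGACNNNGC), found in 10.2%. Of the other motifs searched, the AP-1 site TGANTCA (6.75% of windows), the heat shock element GAANNTTC or TTCNNGAA (12.8%), the cyclic AMP element TGACGTCA (1.55%), the kappaB site of NF-kB (0.356%) and the E-box CACGTG (6.02%), none was in either window. Of the windows not shown, that of Osgin1 holds an AP-1 site and that of Ifrd1 a CCAAT box. These matches only describe the letters.

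Arc, an immediate-early gene best known from neurons (chr15:74669083-74672570), had the largest positive fitted difference of all genes. It was at -1.97 and -0.78 log2 CPM in untreated WT of mice A and B and at -1.38 and 0.10 in untreated KO. In LPS-treated libraries of mice A, B and C it was at -0.29, 1.16 and 0.63 in WT and at 3.79, 3.76 and 3.19 in KO. The genotypes overlapped when untreated and were separate after LPS. Between the untreated and the LPS library of a mouse, WT moved by 1.69 log2 (A) and 1.94 (B), and KO by 5.17 (A) and 3.66 (B). The response differed by 2.34 ± 0.85 log2 (5.07-fold, limma unadjusted p = 0.0228, adjusted p = 0.823), and by 2.94 ± 0.89 without the untreated library of WT mouse A. The untreated libraries held 5 to 37 reads of Arc, so its starting level is known with little precision.

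Phlda1, a pleckstrin homology-like domain gene induced by growth factors (chr10:111506286-111508645), followed the same order. Untreated, it was at 1.28 and 1.52 log2 CPM in WT and at 0.79 and 1.75 in KO. After LPS it was at 4.68, 5.26 and 4.94 in WT and at 6.57, 6.71 and 6.28 in KO. KO and WT were again separate only after LPS. The response differed by 1.69 ± 0.41 log2 (3.23-fold, limma unadjusted p = 0.00266, adjusted p = 0.823). It was 1.81 without the untreated library of WT mouse A, 2.39 in mice A and 1.22 in mice B.

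Ifrd1, a transcriptional co-regulator (chr12:40201567-40248504), had the smallest unadjusted p of all genes, 0.00105. Its untreated libraries were at 4.90 and 4.70 log2 CPM in WT and 4.71 and 4.59 in KO. Its LPS libraries were at 7.35, 7.36 and 7.47 in WT and 8.09, 8.09 and 8.06 in KO. Replicates were close to each other in every group. The difference in response was 0.84 ± 0.18 log2 with all libraries and 0.74 ± 0.14 without the untreated library of WT mouse A. It was 0.94 in mice A and 0.83 in mice B, so both pairs gave values of like size.

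Dnajb1, a co-chaperone of HSP70 (chr8:83608193-83612653), changed little with LPS in WT. It was at 5.33 and 4.91 log2 CPM in untreated WT and at 4.95, 5.13 and 5.36 after LPS. In KO it was at 4.96 and 5.04 when untreated and at 6.10, 6.03 and 6.21 after LPS. Only the LPS-treated KO libraries stood above the rest. The LPS response was 0.02 log2 in WT and 1.11 in KO, a difference of 1.09 ± 0.24 (limma unadjusted p = 0.00156). The difference was 0.88 ± 0.21 without the untreated library of WT mouse A, 1.52 in mice A and 0.78 in mice B.

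Osgin1, an oxidative stress-induced growth inhibitor (chr8:119434124-119446256), went down with LPS in mice A and B of both genotypes, and its positive difference is a smaller decrease in KO. It was at 5.82 and 5.49 log2 CPM in untreated WT and at 3.77, 4.16 and 3.53 after LPS. In KO it was at 5.09 and 5.57 when untreated and at 4.55, 4.88 and 4.91 after LPS. The fitted response was -1.83 log2 in WT and -0.54 in KO, a difference of 1.29 ± 0.33. It was 1.12 ± 0.35 without the untreated library of WT mouse A, and was larger in mice A (1.51) than in mice B (0.65).

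Odc1, the rate-limiting enzyme of polyamine synthesis (chr12:17544794-17551505), was at 6.34 and 5.85 log2 CPM in untreated WT and at 5.92 and 5.97 in untreated KO. After LPS it was at 6.89, 7.07 and 6.84 in WT and at 7.56, 7.75 and 7.65 in KO. The highest untreated value was that of WT mouse A, and the difference in response was 0.87 ± 0.24 in the fit, 0.62 ± 0.17 without that library, 1.09 in mice A and 0.56 in mice B.

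Il1b, which encodes the pro-inflammatory cytokine interleukin 1 beta (chr2:129364570-129371139), was at 1.91 and 2.17 log2 CPM in untreated WT and 1.90 and 1.36 in untreated KO. It was at 9.48, 9.87 and 9.56 in WT and 9.88, 10.37 and 9.96 in KO after LPS, and the groups were separated by only 0.01. Both untreated KO values were below both untreated WT values, which adds to the difference in response. The response of Il1b differed by 0.84 ± 0.32 log2 (limma unadjusted p = 0.0259), with 0.41 in mice A and 1.31 in mice B. It was 0.97 ± 0.34 without the untreated library of WT mouse A, and the replicate block gave an unadjusted p of 0.0889.

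Cd83, a surface protein of activated antigen-presenting cells (chr13:43784775-43803132), differed from the others in that the genotypes were apart only when untreated. Untreated, it was at 5.67 and 5.98 log2 CPM in WT and at 5.25 and 5.37 in KO, with no overlap. After LPS it was at 8.30, 8.70 and 7.96 in WT and at 8.45, 8.63 and 8.43 in KO, where the genotypes overlapped. The response differed by 0.70 ± 0.30 log2, by 0.85 ± 0.31 without the untreated library of WT mouse A, and by 0.57 in mice A and 0.54 in mice B.

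**Figure D3:**
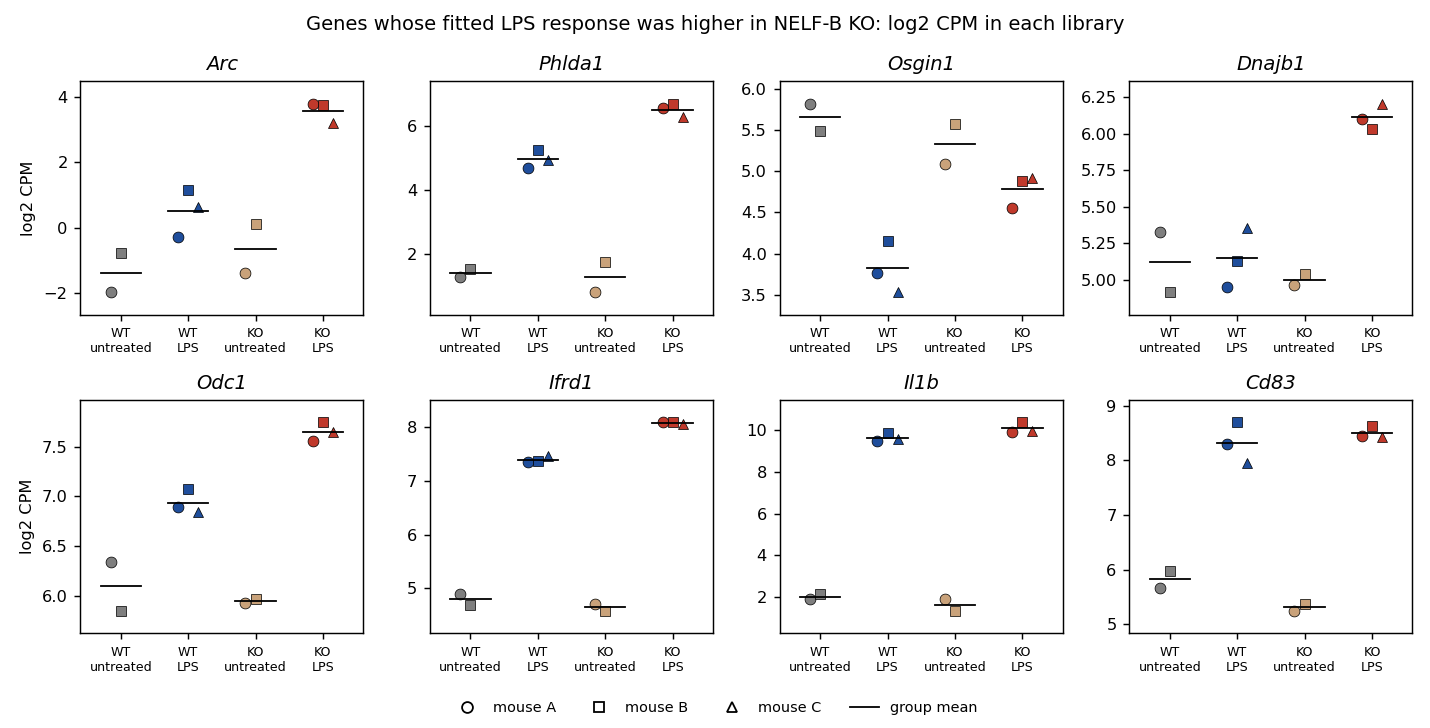
log2 CPM of the 8 genes in each of the 10 libraries, by genotype and treatment; symbols mark mice A, B and C, and black lines are group means. In all panels but that of Cd83 the LPS-treated KO libraries lie above the LPS-treated WT libraries, while Arc and Phlda1 overlap when untreated.

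Libraries treated with LPS and Dex, which the interaction did not use, were made from the same mice. There, KO minus WT was 3.12, 2.69 and 2.50 log2 for Arc in mice A, B and C and 1.85, 2.06 and 1.49 for Phlda1. It was 1.00, 0.84 and 0.80 for Ifrd1 and 0.81, 0.57 and 0.59 for Dnajb1. For Osgin1 the values were 0.57, 0.41 and 1.06, for Odc1 0.66, 0.82 and 0.49 and for Il1b 0.61, 1.05 and 0.52. For Cd83 they were 0.07, -0.16 and 0.43, with no common sign. For all of these genes but Cd83, KO was above WT in mice A, B and C, under LPS and under LPS with Dex. The genes were selected on LPS libraries of these mice, and the share of all genes with this order was not counted. These are levels and not LPS responses.

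Other genes reached the unadjusted thresholds only with all 10 libraries. Itpkc, an inositol trisphosphate kinase, Chka, a choline kinase, and Dusp5, a nuclear phosphatase of ERK, differed by 0.86 ± 0.34, 0.86 ± 0.30 and 0.77 ± 0.31 log2. Without the untreated library of WT mouse A these became 0.74, 0.52 and 0.39, with unadjusted p-values of 0.0784, 0.0503 and 0.109. In Chka that library was at 4.12 log2 CPM, against 3.44, 3.38 and 3.52 in the other untreated libraries. In Dusp5 it was at 3.999, against 3.25, 3.24 and 3.32. Ctsf, a lysosomal cysteine protease, was higher by 0.76 in the fit, but mice A gave 1.03 and mice B -0.06. WT mouse A held the highest of the 4 untreated values in 11 of the 15 genes with a higher response. These genes were selected on a fit that holds this library, and the share over all genes was not counted.

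Without the untreated library of WT mouse A, 11 further genes passed the unadjusted thresholds in the higher direction. Among them were the chemokine Cxcl2 at 0.88 ± 0.26 log2, the immediate-early factors Fos at 0.93 ± 0.31, Egr1 at 0.83 ± 0.36 and Egr2 at 1.00 ± 0.39, the NF-kB regulator Nfkbiz at 1.11 ± 0.47, the pseudokinase Trib1 at 1.04 ± 0.37 and Lfng, a glycosyltransferase of Notch, at 0.98 ± 0.28. That fit sets the untreated library of WT mouse B against those of KO mice A and B, and several of these genes were lower in untreated mice A than in mice B in both genotypes. Nfkbiz was at 6.04 and 8.32 log2 CPM in untreated WT of mice A and B and at 7.18 and 8.17 in untreated KO. Within mice B alone the difference in response was 0.83 for Cxcl2, 0.34 for Fos, 0.18 for Egr1, 0.80 for Egr2, 0.56 for Nfkbiz, 0.36 for Trib1 and 0.47 for Lfng. Over the 11 genes the median was 0.93 in that fit and 0.47 in mice B, where all 11 were above 0. They were selected on a fit that holds the libraries of mice B, so their sign in mice B is not a separate check.

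A lower fitted response in KO was found for 25 genes at the unadjusted thresholds. Bard1, the partner of BRCA1 in DNA repair (chr1:71027498-71103146), was the only gene past the unadjusted thresholds in this direction in both fits. It was at 1.85 and 1.80 log2 CPM in untreated WT and 1.60 and 1.59 in untreated KO. After LPS it was at 2.73, 2.13 and 3.28 in WT and at 1.33, 1.42 and 0.99 in KO. KO was below WT in both states, and the gap was wider after LPS, most of all for mouse C. The response differed by -1.24 ± 0.47 log2 (limma unadjusted p = 0.0268) and by -1.26 without the untreated library of WT mouse A. It was -1.15 in mice A and -0.50 in mice B, and the replicate block gave -0.82 with an unadjusted p of 0.0617.

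Ccne2, which encodes cyclin E2, a driver of the G1 to S transition (chr4:11191351-11204779), was at 0.92 and 1.78 log2 CPM in untreated WT and 1.11 and 1.85 in untreated KO. After LPS it was at 2.53, 2.04 and 2.95 in WT and 1.11, 1.16 and 0.93 in KO. The genotypes overlapped when untreated and were separate after LPS. Its difference in response was -1.57 ± 0.54 log2, -1.61 in mice A and -0.95 in mice B, and -1.14 without the untreated library of WT mouse A (unadjusted p = 0.0642).

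The kinetochore genes Ska3, Kntc1 and Casc5 differed by -1.05, -1.03 and -1.12 log2, the recombination gene Fignl1 by -0.94 and the scaffold gene Iqgap3 by -0.92. In mice B alone these were -0.68, -0.18, -0.27, -0.34 and -0.09. In Kntc1 the untreated libraries of WT mice A and B were at 2.92 and 3.91, and the LPS libraries of WT mice A, B and C at 4.33, 3.99 and 4.53. KO was at 3.001 and 3.31 when untreated and at 2.92, 3.20 and 2.86 after LPS. The change in WT was thus 1.41 log2 in mouse A and 0.08 in mouse B. Kif24, Fsd1l and Atad2 had fitted differences of -1.13, -1.04 and -0.83, and mice B gave -0.21, -0.62 and -0.10.

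Over the 25 genes with a lower response, the median difference was -1.16 log2 in mice A and -0.31 in mice B, where 24 of 25 were below 0 and 5 were over 1.5-fold. They were selected on a fit of these same libraries, so their sign in mice B is not a separate check. WT mouse A held the lowest of the 4 untreated values in 20 of the 25. The share of all genes with that order was not counted. Among the LPS-treated WT libraries, that of mouse A was the highest in 13 genes, an order that was not counted over all genes. That of mouse C was the highest in 12, against 3297 of all 9614 genes. Mouse C adds an LPS library and no untreated library, so a difference between WT mouse C and the other WT mice enters the fitted LPS response.

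Cav2, a caveolin of membrane invaginations (chr6:17281185-17289115), and Ifi205, an interferon-inducible gene (chr1:174011998-174031810), were led by untreated values. Cav2 was at 2.76 in untreated WT of mouse A and at 4.19, 4.59 and 4.17 in the other untreated libraries, and its response differed by -2.43 in mice A and by -0.26 in mice B. Ifi205 had 4 and 16 reads in untreated WT and 43 and 35 in untreated KO. Its fitted difference was the largest of this direction among the genes past the thresholds, -2.10 ± 0.92 log2, but mice A gave -2.67 and mice B 0.16. Tfb2m, a mitochondrial transcription factor, was at 1.64 and 2.21 in untreated WT and 2.80 and 2.81 in untreated KO, and overlapped after LPS.

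**Figure D4:**
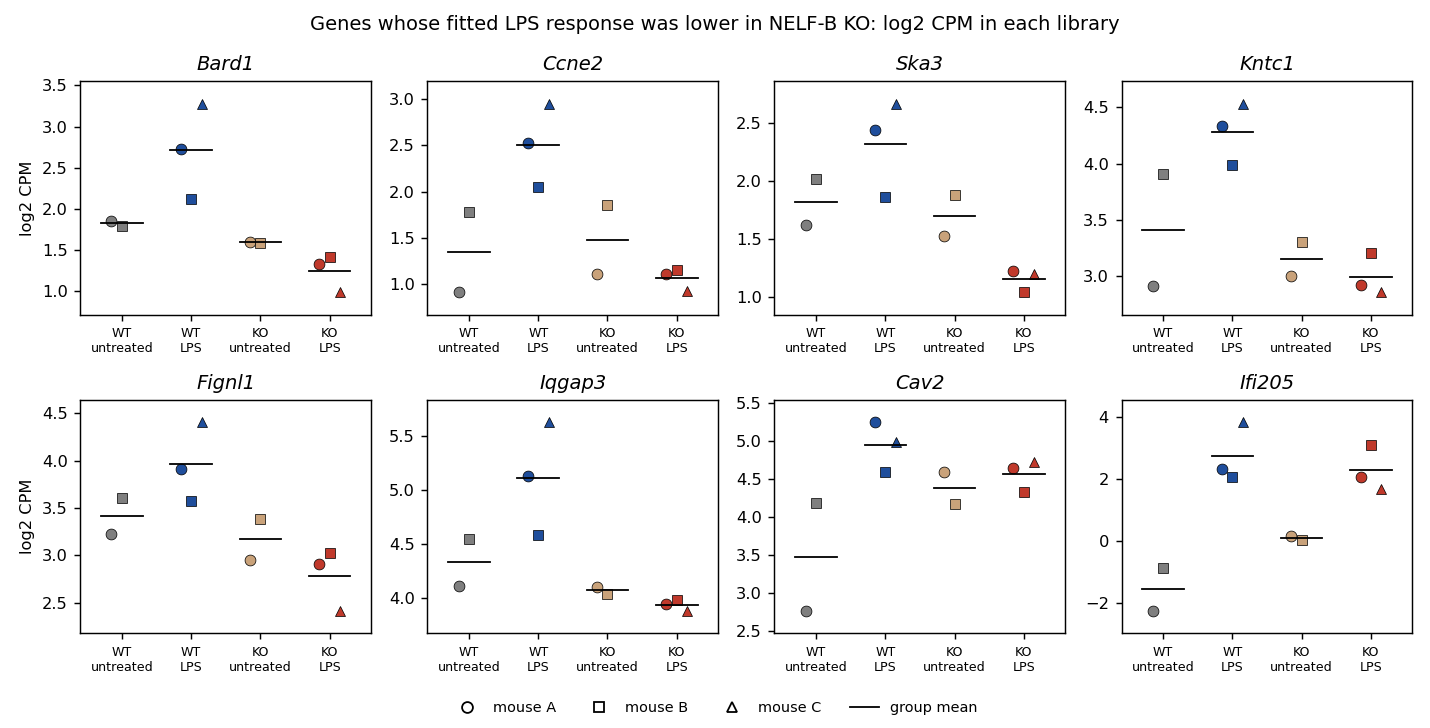
log2 CPM of 8 genes with a lower fitted LPS response in KO, in each of the 10 libraries by genotype and treatment; symbols mark mice A, B and C, and black lines are group means. In Bard1, Ccne2, Ska3, Kntc1, Fignl1 and Iqgap3 the LPS-treated KO libraries lie below all LPS-treated WT libraries; in Cav2 the untreated library of WT mouse A lies far below the other untreated libraries, and in Ifi205 both untreated WT libraries lie below those of KO.

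The direction of the LPS-induced genes as a whole depended on the libraries used. Over the 338 genes the median difference in response was -0.05 log2, against -0.03 over all 9614 genes, and 151 were above 0. Without the untreated library of WT mouse A the median was 0.04 and 55.0% were above 0. Mice A gave a median of -0.15 with 149 above 0, and mice B a median of 0.21 with 274 above 0. Of all 9614 genes, 4598 were above 0 in mice A and 4850 in mice B. Under LPS, the mean of KO was above that of WT for 230 of the 338 induced genes and 4837 of all genes. That is a level and not a response. Over the 145 lowered genes the median was 0.06. Of the 201 genes that the study listed as induced by LPS and repressed by Dex, 173 were measured, and their median was -0.06 with all libraries and 0.11 without that library. The study chose that list on RNA-seq of LPS-treated BMDM, which may include libraries used here, so its direction is not taken as independent of the WT response.

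Lists of genes by function, drawn up with earlier results of these data known, were described by their medians. None of their members passed an adjusted p under 0.05 for the difference in response. Of 20 cytokines measured of 25 listed, 16 had a higher response in KO, with a median of 0.11 log2, and 1 (Il1b) passed the unadjusted thresholds. The median was 0.52 with 15 of 20 above 0 without the untreated library of WT mouse A, and the members over 1.5-fold higher were 8 in place of 2. The median was 0.26 in mice A and 0.35 in mice B, with 14 of 20 above 0 in each. Tnf, the tumour necrosis factor gene, differed by 0.09 ± 0.46 log2, with -0.01 in mice A and 0.30 in mice B. Its value rested on single untreated WT libraries, being 0.65 without that of mouse A and -0.46 without that of mouse B. Lif, a cytokine of the interleukin 6 family, differed by 0.72 ± 0.44, with 0.53 and 1.05. Il27 had the lowest value of the list, -1.28, with -0.18 without the untreated library of WT mouse A, -2.68 in mice A and 0.98 in mice B.

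Of 26 immediate-early transcription factors measured, 17 had a higher response in KO (median 0.20 log2, 0.25 in mice A and 0.17 in mice B). Without the untreated library of WT mouse A, 21 did and the median was 0.42. After LPS, all KO libraries were above all WT libraries for 12 of the 26, against 5.91% of all genes. Of the 26, 21 were LPS-induced, and 81 of the 338 LPS-induced genes showed this order. Ier2 had the largest difference, 1.26 ± 0.56 log2, with 0.65 without that library, 2.14 in mice A and 0.27 in mice B. Myc, a growth regulator, differed by 0.09 ± 0.58, which became 0.76 without the untreated library of WT mouse A and -0.57 without that of WT mouse B. Csrnp1 differed by -0.79 in the fit, by 0.50 without the untreated library of WT mouse A and by 0.14 in mice B.

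Of 24 genes of MAP kinase feedback and growth signalling, 14 were higher (median 0.20 log2). The unadjusted thresholds were passed by 3 (Arc, Phlda1 and Dusp5), as by 0.156% of all genes in this direction. The list was made with earlier results of these data known, so this count lends no separate support. With the untreated library of WT mouse A left out, 17 of 24 were higher and the median was 0.22. LPS-treated KO was above LPS-treated WT in every library for 9 of the 24, against 5.91% of all genes and 81 of the 338 LPS-induced genes. Of the 24, 18 were LPS-induced. Errfi1, an inhibitor of EGF receptor signalling, was at 3.31 and 3.66 log2 CPM in untreated WT and 4.18 and 3.997 in untreated KO. After LPS it was at 7.48, 7.31 and 7.14 in WT and 8.40, 8.34 and 8.04 in KO. KO was thus above WT in both states, and the response differed by 0.35 ± 0.25, with a limma unadjusted p of 0.202. Spred2, an inhibitor of RAS signalling, had the lowest value of the list, -0.84, with -0.01 in mice B.

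The 15 chemokines measured had a median of -0.03 log2, and 7 were higher in KO. The median was 0.28 and 9 were higher without the untreated library of WT mouse A, so the sign of the median turned. Ccl2 differed by -0.35 ± 0.44 and Cxcl10 by -0.75 ± 0.45, and mice A and B had opposite signs for both (-0.37 and 0.57 for Ccl2, -1.52 and 0.59 for Cxcl10). Cxcl16 was the highest at 0.56, with 0.02 in mice B. Among 24 NF-kB subunits and inhibitors the median was 0.08 with and without that library, from Rel at -0.97 to Nfkbib at 0.44, which were 0.10 and 0.10 in mice B. Of 22 heat-shock chaperones 12 were higher, and Dnajb1 alone passed the unadjusted thresholds. Without that library 8 of 22 were higher, and the median went from 0.04 to -0.08. Dnajb4 was the lowest at -0.39 ± 0.18. The 27 pausing and elongation factors had a median of -0.07 with 11 above 0, or 0.03 with 18 above 0 without that library, and 0 passed the unadjusted thresholds in either fit. Nelfe, another NELF subunit, was the highest at 0.82 and was 0.10 in mice B, and Cdk12, an elongation kinase, was the lowest at -0.70 and was 0.04 in mice B.

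The 33 interferon-response genes had values of opposite sign in different mice. In the fit of all libraries 9 of 33 were higher in KO, with a median of -0.37 log2, and without the untreated library of WT mouse A 2 of 33 were, with a median of -0.22. In mice B 32 of 33 were higher in KO, with a median of 0.55, and in mice A 14 were, with a median of -0.14. Of all 9614 genes, 4850 were higher in mice B and 4598 in mice A. The LPS library of WT mouse C was the highest of the 3 WT libraries for 31 of the 33, against 3297 of all 9614 genes. Ifi44, the lowest of the list at -1.30 ± 1.15, was at 3.32, 3.87 and 6.06 log2 CPM in LPS-treated WT of mice A, B and C. Socs3, a feedback inhibitor of cytokine signalling, was the highest at 0.48 ± 0.22, with 0.51 in mice A and 0.32 in mice B.

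Of 26 cell cycle genes 4 had a higher response in KO, with a median of -0.21 log2, and 1 (Ccne2) passed the unadjusted thresholds. Without the untreated library of WT mouse A the median was -0.51. Mice A gave a median of 0.20 with 16 of 26 above 0, and mice B -0.01 with 10 of 26. The level in untreated KO was also below WT, with a median of -0.62, or -0.38 without the untreated library of WT mouse A. After LPS, all KO libraries were below all WT libraries for 22 of the 26, against 752 genes (7.82%) of all. The LPS library of WT mouse C was the highest of WT for 20 of the 26, against 3297 of all 9614 genes. Birc5, the survivin gene, was the highest at 0.35 and was 0.10 in mice B.

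Levels under LPS and levels when untreated were tested in the same fit. KO and WT differed for 0 genes at an adjusted p under 0.05 and over 1.5-fold in limma, both untreated and under LPS (0% in each direction). At an unadjusted p under 0.05 and over 1.5-fold, 163 were higher and 216 lower in untreated KO, and 77 were higher and 230 lower in LPS-treated KO. In voom on the recovered reads, 0 and 1 passed at the adjusted threshold. Nelfb differed by -2.02 ± 0.28 log2 under LPS with an adjusted p of 0.133 in limma. LPS changes of KO mice A and B were both below those of WT for 1423 genes (14.8%).

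Among the remaining lists, 4 of 14 mRNA decay regulators, 4 of 20 LPS receptor and adaptor genes, 6 of 10 glucocorticoid receptor and target genes, 6 of 10 prostaglandin genes, 15 of 27 hypoxia and glycolysis genes, 10 of 16 p53 targets, 9 of 19 genes of the unfolded protein and integrated stress response and 4 of 4 replication-dependent histone genes were higher in KO. Their medians ran from -0.29 log2 (mRNA decay) to 0.21 (prostaglandin synthesis), and 0 members passed the unadjusted thresholds in either fit. Most of these counts moved when the untreated library of WT mouse A was left out. Without it, 8 of 14 mRNA decay regulators (median 0.06), 15 of 20 LPS receptor and adaptor genes (0.08), 4 of 10 glucocorticoid receptor and target genes (-0.06) and 5 of 10 prostaglandin genes (-0.03) were higher. So were 7 of 27 hypoxia and glycolysis genes (-0.22), 11 of 16 p53 targets (0.12), 6 of 19 stress response genes (-0.16) and 1 of 4 histone genes (-0.08). The values of mice A were larger than those of mice B for most extremes of these lists. Zfp36l1, a decay factor, was at 0.84 (1.19 in mice A and 0.15 in mice B), and Zc3h12c was at -0.90 (-1.98 and 0.24). Tlr4, the LPS receptor, was at -0.64 (-1.24 and 0.03) and Irf3 at 0.54 (1.04 and -0.06). Hif1a was at -0.80 (-1.82 and 0.06) and Eno1, enolase, at 0.58 (1.21 and 0.01). Bax was at 0.77 (1.57 and -0.03) and Trp53inp1 at -0.51 (-1.17 and -0.12). Ddit3 was at 0.65 (1.77 and -0.05) and Slc7a11 at -0.47 (-0.98 and 0.16). Cebpb was at 0.48 (1.64 and -0.39) and Klf9 at -0.91 (-2.17 and 0.28). Ptges2 was at 0.47 (0.90 and 0.03) and Ptgs2 at -0.39 (-0.74 and 0.23). Hist1h1c was at 0.27 (0.27 and -0.27) and Hist1h2bc at 0.08 (0.43 and -0.21).

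**Figure D5:**
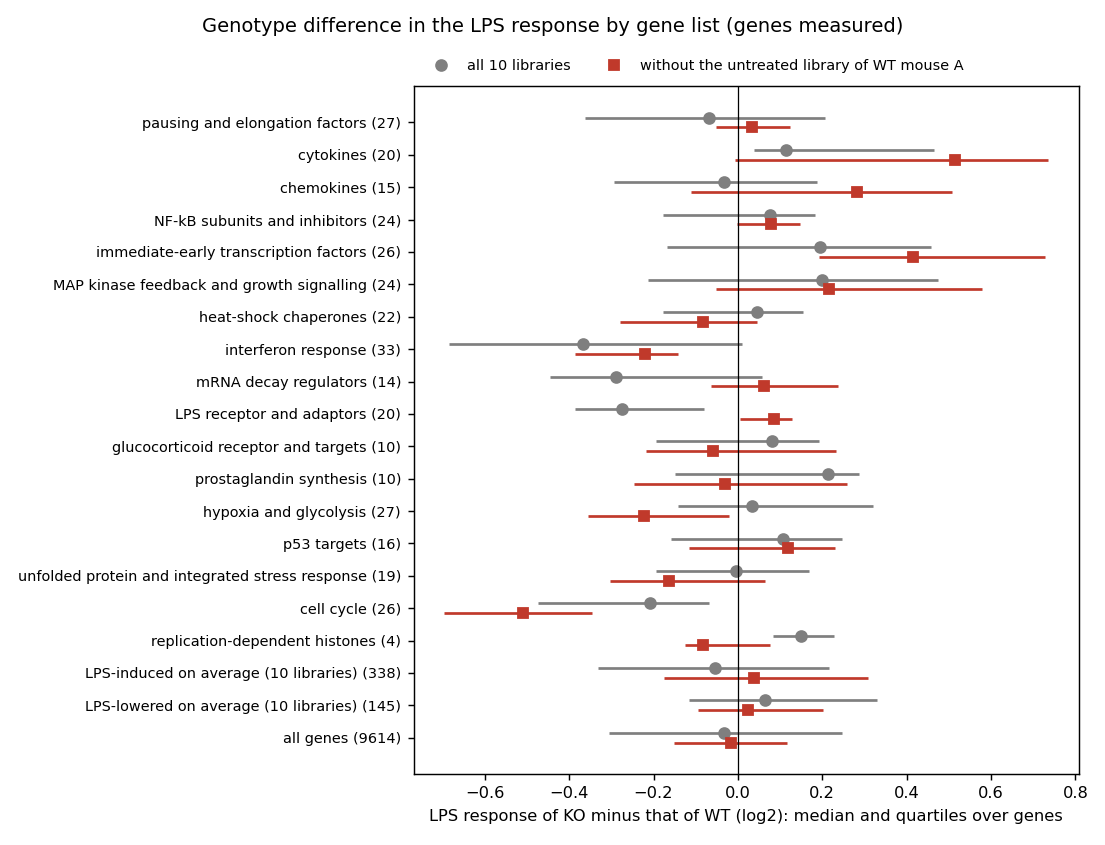
Median (symbol) and quartiles (line) of KO minus WT in the LPS response, in log2, over the measured genes of each list (number in brackets), for all 10 libraries (grey) and without the untreated library of WT mouse A (red). Grey and red medians lie on opposite sides of 0 for several lists, among them chemokines, LPS receptor and adaptors, and the LPS-induced genes, and both lie below 0 for interferon response and cell cycle.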

How the data were processed

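RNA-seq was measured in BMDM of 3 WT and 3 NELF-B KO mice. The authors aligned 50-bp reads to mm10, counted those unique to exons, normalised with edgeR and deposited log2 CPM for 9614 genes. Their p-value and FDR columns were not used, and 0 columns of per-sample values were left unused. Samples were grouped by the labels.

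The interaction was fitted with lmFit and eBayes (trend) in limma 3.58.1 under R 4.3.3 over the 10 untreated and LPS libraries, without a mouse term, with Benjamini-Hochberg adjustment across all 9614. No pseudocount or filter was added. Because the deposited unit is log2 CPM, a count test was not the main test. Depth was recovered from the deposited values: with a step taken as 1 read, 100.0% of values under 3 CPM were whole within 0.1 read. The test was checked on simulated data. Tables were made with Python 3.11.15, numpy 2.4.6 and pandas 2.3.3.

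The mouse numbers in the labels pair libraries. Untreated and LPS libraries of a mouse deviated together (r = 0.45 in WT and 0.87 in KO across genes). So did WT and KO libraries of the same letter, from different animals (r = 0.35 untreated and 0.74 with LPS). Where nothing says otherwise, p-values measure the spread between these samples, which the main fit treats as independent.

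The members and lists were chosen with earlier results of these data known. Named genes are Nelfb, 6 genes of the study, the 10 largest differences per direction past unadjusted p under 0.05 and 1.5-fold, with mean log2 CPM above 0, mice A and B apart and the same sign without the untreated library of WT mouse A, up to 5 per direction that failed the latter conditions, the extremes of each of 17 lists and the 5 largest LPS increases. Others, such as Cd83, Cxcl2, Fos, Egr1, Egr2, Nfkbiz, Trib1 and Lfng, were chosen after their values were seen. Of the genes, 9211 (95.8%) had a length in GENCODE vM21, which also gave positions. A gene that the rule names is not reported here.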

Additional observations from a re-analysis of the deposited data

How the results depend on the processing

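Each library was left out in turn. The count of genes with a different LPS response at an adjusted p under 0.05 was 0 with all 10 libraries and 0 to 2959 in these fits, and only the fit without the untreated library of WT mouse B was above 0. It was 40 at an unadjusted p and 0 under the other settings: the replicate block, the block as a random effect, the batch block, all 16 libraries, library quality weights, centring, log2(CPM + 1), a mean log2 CPM above 1, no variance trend, an adjusted p under 0.1 and voom. The unadjusted counts, 15 higher and 25 lower, ran from 7 to 1776 and from 4 to 1925 when a library was left out, the highest again without the untreated library of WT mouse B. Without the LPS library of WT mouse B they were 48 and 108, and without the untreated library of WT mouse A 19 and 4. The higher count was 32 with the block as a random effect, 26 with the batch block, 70 with all 16 libraries and 6 with voom. The lower count was 3 with the replicate block, 39 with it as a random effect, 79 with all 16 libraries, 4 with weights and 50 with voom.

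The LPS response counted 330 genes in WT, 282 in KO and 483 on average. With the replicate block, which pairs libraries of a mouse, these were 152, 160 and 318, and with weights 65, 543 and 294. All 16 libraries gave 582 in WT. Leaving out a library gave 231 to 4172 in WT, 148 to 378 in KO and 348 to 1888 on average, the lowest KO counts being 148 and 160 without the untreated library of KO mouse A or B. KO against WT untreated, 0 genes, ranged from 0 to 3798, with 1 gene for all 16 libraries and 1 without a variance trend. KO against WT under LPS, 0 genes, ranged from 0 to 4 and was 1 with the block as a random effect, 14 with all 16 libraries, 236 with weights, 1 with centring, 1 without a trend and 1 with voom. The median difference over LPS-induced genes was 0.205 in mice B. Ctsf (-0.061) and Ifi205 (0.163) had the opposite sign in mice B. The cause of these changes was not tested. Tests with edgeR and DESeq2 were not run, because the deposited unit is log2 CPM. In data simulated with the same spread in all groups, 0 of 200 genes with a 2-fold difference were recovered. Recovery at the unequal spread of the data was not tested.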
